A study of Homo sapiens with 32 samples.

Results

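The 10 genes described here are ASB6, FRS2, MID1IP1, ZMYND8, SMAD3, ABL2, JADE1, TBRG4, TAF1C and BPTF, whose mix of transcripts differed between OTS964-treated and solvent-treated human cancer cells. They were picked on transcript shares measured in these same libraries, so the values that chose them are given as a description. They are 10 of 18858 genes, and hold 81 of the 42587 transcripts that could be matched to a gene by identifier. A share is the percentage of a gene's estimated reads that the deposited tables assign to 1 transcript in 1 library.

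RNA was sequenced from 4 established lines, namely the melanoma line A375, the breast cancer lines Cal51 and MDA-MB-231, and the colorectal line DLD1. Every line came as cells labelled wild-type, described as sensitive to inhibition of the kinase CDK11, and as cells labelled G579S, described as resistant. Each kind of cell received the CDK11 inhibitor OTS964 at 100 nM for 6 h, or DMSO as the solvent control. The 32 libraries fall into 16 groups of 2, so a genotype under 1 treatment is represented by 8 libraries. All groups shared the culture medium and the library kit, and the labels name neither the gene that carries G579S nor whether a G579S line is a clone. Separate cultures for the 2 libraries of a group are not stated, so a p-value reflects the spread of these libraries alone, and that spread may be technical.

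Most human genes are transcribed into a precursor whose introns are removed by the spliceosome, and the choice of exons, of the start site and of the cleavage site gives several transcripts from 1 gene. CDK11 phosphorylates SF3B1, a protein of the U2 particle of the spliceosome, and takes part in activating the spliceosome. A transcript that lacks an exon or keeps an intron can encode a shorter or altered protein, or none.

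A library held between 16091376 and 29742686 estimated reads. The libraries labelled DLD1 wild-type did not carry the marker profile of the DLD1 G579S libraries. Their summed level of 6 markers of the melanocyte lineage lay between 473.1 and 1087 CPM (reads scaled to a common library size), beside 87.5 to 97.8 in DLD1 G579S cells and 313.0 to 780.5 in wild-type A375 cells. That sum was mostly SOX10 and ERBB3, with DMSO means of 716.0 and 290.5, beside 1.29 and 68.8 in DLD1 G579S cells. S100A1 was also higher with DMSO (42.1 beside 0.216). MITF (13.8 beside 24.5) and PMEL (0.54 beside 1.78) were lower, and MLANA was near 0 in both. The summed level of 6 markers of intestinal epithelium, mostly KRT8, lay between 256.8 and 691.9 CPM, beside 7133 to 10350 in DLD1 G579S cells. Each of these 6 had a lower mean than in DLD1 G579S cells under either treatment. None of the 12 genes was at 0 in all 4 libraries. These 4 are called the libraries labelled DLD1 wild-type, and results are also given without them. CDK11B, which encodes 1 of the near-identical CDK11 kinases, stood at 638.6 CPM in MDA-MB-231 G579S cells with DMSO and at 59.1 CPM in their wild-type counterparts. The 2 replicates of a group were further apart than sampling noise throughout, most in Cal51 G579S cells with DMSO and in wild-type MDA-MB-231 cells with OTS964, where the chi-square per degree of freedom was 87.0 and 85.7.

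In 6 of the genes, the transcripts that differed in share could be separated by a stretch of sequence in the reference annotation. The stretches of coding sequence are printed so that a reader can see which exon or intron the shares refer to. Coordinates are those of GENCODE release 29 on GRCh38, on the minus strand in each case below, and not of the deposited tables. For ASB6, TAF1C and ABL2 the length of the stretch equals the difference in length between the transcript shown and its counterpart as the tables list them. For TBRG4 the 2 exons together equal the difference between NM_004749.3 and NM_030900.3, while NM_199122.2, which pairs with the same annotated transcript as NM_030900.3, also differs in other bases. Capitals mark the exon or intron, and lower case marks 15 bases of the spliced neighbours on each side, 5′ to 3′.

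ASB6 exon 4 of 6, 109 bases, chr9:129639202-129639310, absent from NM_177999.2: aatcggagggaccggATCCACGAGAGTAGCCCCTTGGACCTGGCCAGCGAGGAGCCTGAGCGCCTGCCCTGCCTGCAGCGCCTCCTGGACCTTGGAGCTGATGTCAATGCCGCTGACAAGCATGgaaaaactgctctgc
ASB6 exon 5, 87 bases, chr9:129638573-129638659, absent from NM_001202403.1: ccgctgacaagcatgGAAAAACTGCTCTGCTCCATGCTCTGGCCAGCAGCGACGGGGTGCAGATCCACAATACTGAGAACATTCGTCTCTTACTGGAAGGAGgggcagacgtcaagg
TBRG4 exon 4 of 11, 172 bases, chr7:45104538-45104709, absent from NM_030900.3 and NM_199122.2: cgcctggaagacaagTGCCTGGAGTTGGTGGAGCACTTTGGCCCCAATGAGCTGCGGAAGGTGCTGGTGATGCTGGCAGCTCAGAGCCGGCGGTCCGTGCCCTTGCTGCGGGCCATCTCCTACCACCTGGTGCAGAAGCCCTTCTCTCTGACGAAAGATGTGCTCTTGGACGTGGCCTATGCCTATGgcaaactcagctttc
TBRG4 exon 5, 158 bases, chr7:45104099-45104256, absent from the same transcripts: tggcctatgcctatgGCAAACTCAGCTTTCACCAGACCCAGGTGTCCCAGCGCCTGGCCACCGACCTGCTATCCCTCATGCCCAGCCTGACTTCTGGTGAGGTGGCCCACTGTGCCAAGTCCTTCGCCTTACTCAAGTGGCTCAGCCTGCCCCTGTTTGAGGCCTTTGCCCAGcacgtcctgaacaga
TAF1C intron kept by NM_005679.3, 78 bases, chr16:84181864-84181941: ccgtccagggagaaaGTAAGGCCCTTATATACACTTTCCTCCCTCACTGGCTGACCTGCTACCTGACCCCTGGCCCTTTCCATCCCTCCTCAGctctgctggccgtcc
ABL2 intron kept by NM_005158.4, 309 bases, chr1:179108899-179109207, first 40 bases of the intron: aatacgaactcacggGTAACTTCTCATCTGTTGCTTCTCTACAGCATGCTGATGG
ABL2, the same intron, last 40 bases: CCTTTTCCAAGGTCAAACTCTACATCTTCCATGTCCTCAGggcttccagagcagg

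Both introns begin with GT and end with AG, the usual ends of an intron. The TAF1C intron had a GC content of 56.4% and a length that is a multiple of 3, so the annotated coding sequence is 2607 bases with it and 2529 bases without it. The ABL2 intron, with a GC content of 53.4%, lies in the coding part of the last exon, and the coding sequence is 3501 bases with it and 3192 bases without it. The length of ASB6 exon 4 is not a multiple of 3, and the annotated coding sequence goes from 1263 bases to 591 bases where it is left out. Without ASB6 exon 5 it has 1176 bases. Leaving out both TBRG4 exons takes 330 bases and leaves a coding sequence of 1563 in place of 1893 bases. In FRS2, the stretches are 2 leader exons of 96 and 43 bases at chr12:69530865-69530960 and chr12:69532014-69532056, and in MID1IP1 a leader exon of 104 bases at chrX:38804310-38804413. These 3 exons lie before the start codon on the plus strand, and the coding sequence is 1524 bases in both FRS2 transcripts and 549 bases in both MID1IP1 transcripts.

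Of the transcripts that gained most in wild-type cells, 6 of 10 had no reads in any wild-type DMSO library. The 6 include that of TBRG4, whose mean gain was 1.29 points. The same count was not made over all genes, so absence without drug is not read as a trait of the members. For each gene, the gaining and the losing transcript are those with the largest difference in mean share, in either direction, between the 8 wild-type OTS964 and the 8 wild-type DMSO libraries. The mean over the 10 gaining transcripts lay between 1.72% and 6.80% in the wild-type DMSO libraries, with a median of 4.19%, and between 22.4% and 40.7% in the wild-type OTS964 libraries, with a median of 36.8%. It lay between 3.71% and 14.1% in G579S DMSO libraries and between 3.32% and 21.5% in G579S OTS964 libraries. The wild-type groups did not overlap, by the choice of the genes and transcripts, and the G579S groups overlapped.

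**Figure D1:**
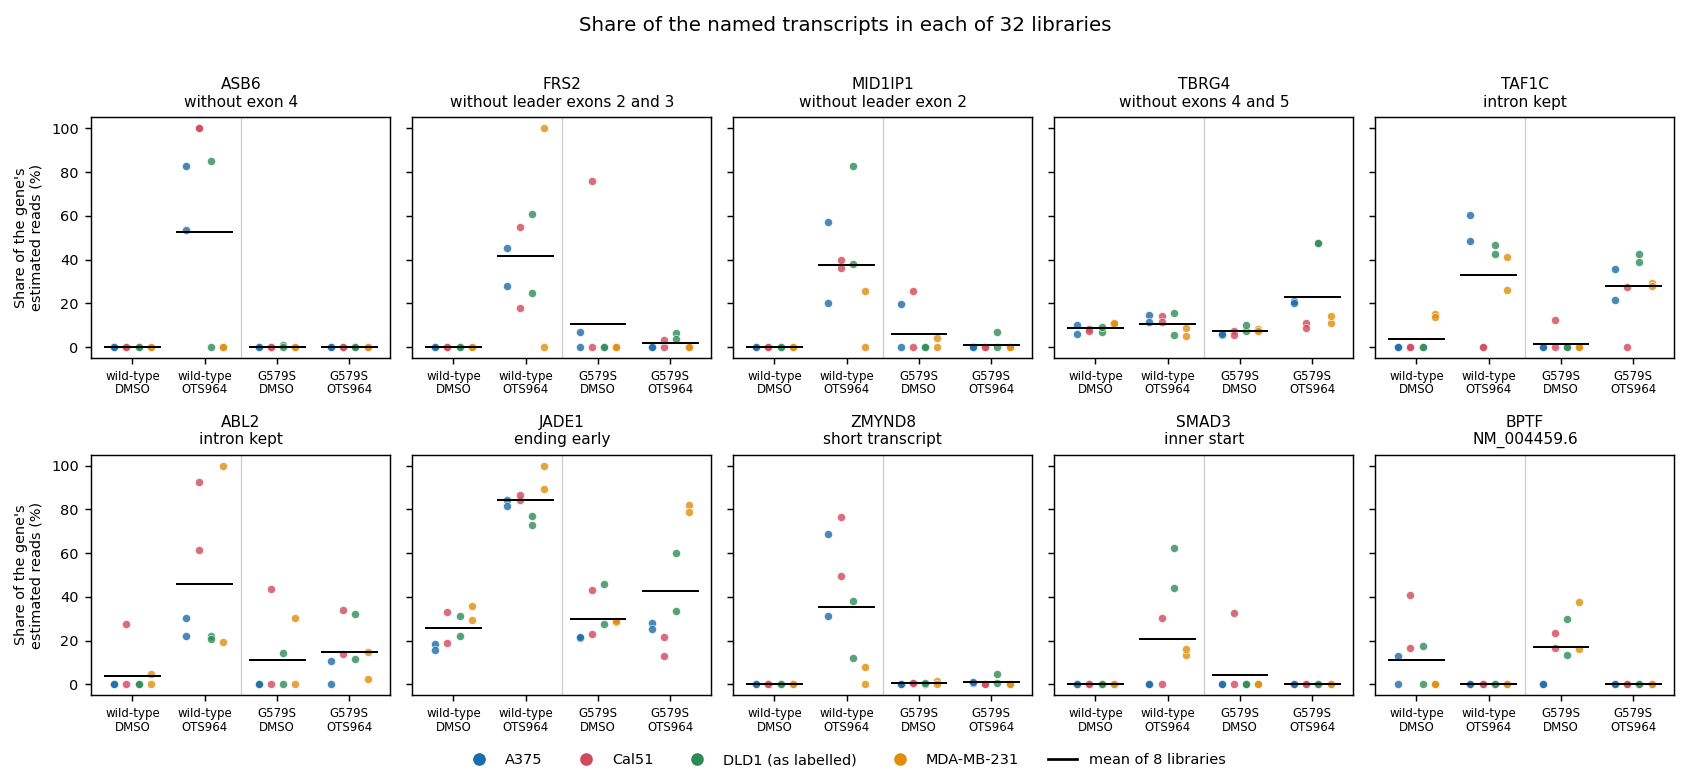
Share of a gene's estimated reads (y axis, percent) held by the named transcript or set of transcripts in each of the 32 libraries (points, coloured by line), by genotype and treatment (x axis), with the mean of 8 libraries as a bar. In wild-type cells ASB6, FRS2, MID1IP1, ZMYND8 and SMAD3 stood at 0 with DMSO and spread upward from 0 with OTS964, while the early-ending JADE1 transcripts were higher in all 8 OTS964 libraries and the BPTF transcript stood at 0 in all 16 OTS964 libraries.

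ASB6 encodes a substrate adaptor of CUL5 ubiquitin ligases. NM_177999.2, which lacks exon 4, was at 0 in all 8 wild-type DMSO libraries, where 3 reads would be 0.142% to 0.289% of the gene. With OTS964 it held 82.9% and 53.4% in A375 cells and 100.0% in both Cal51 libraries. The libraries labelled DLD1 wild-type had 0 and 85.0%. In MDA-MB-231 cells it was at 0 in both. NM_001202403.1, which lacks exon 5, held 36.8% in 1 A375 library and 69.5% and 15.0% in the 2 libraries labelled DLD1 wild-type, so 1 or the other exon-lacking transcript was high in all 6 libraries outside MDA-MB-231. The full transcript NM_017873.3 had 98.0% to 100.0% with DMSO in the 4 lines and 0 to 30.5% with OTS964 in those 6 libraries. It kept 100.0% in both MDA-MB-231 libraries, so the mean of the 8 libraries describes no single line. The gene had between 551 and 2360 reads in a wild-type OTS964 library, and exact (Clopper-Pearson) 95% intervals of the exon 4 shares there were at most 5.53 points wide, which covers counting error only.

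FRS2 encodes the docking protein that links FGF receptors to GRB2 and the RAS pathway. NM_001278357.1, without the 2 leader exons, was at 0 in all 8 wild-type DMSO libraries. With OTS964 it held 28.1% and 45.4% in A375 cells, 55.1% and 18.0% in Cal51 cells, and 60.6% and 24.9% in those labelled DLD1 wild-type. The 2 MDA-MB-231 libraries went to opposite ends, at 100.0% and 0, on 245 and 269 reads of the gene. NM_001278356.1, which has both exons, went from a mean of 80.9% to 55.0%, and NM_006654.4 from 11.1% to 0.1%. The other 5 transcripts had mean shares of at most 3.95% in each genotype under each treatment.

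MID1IP1 encodes a protein that binds MID1 on microtubules and promotes the polymerisation of acetyl-CoA carboxylase. NM_001098791.1, without the leader exon, was at 0 in the 8 wild-type DMSO libraries. With OTS964 it held 57.3% and 20.4% in A375 cells, 39.9% and 36.3% in Cal51 cells, 82.7% and 37.8% in those labelled DLD1 wild-type, and 0 and 25.6% in MDA-MB-231 cells. NM_001098790.1, with the leader exon, had a mean of 64.7% with DMSO and 29.2% with OTS964, while NM_021242.5 had 35.3% and 33.3%. In 3 of 4 lines as labelled both OTS964 libraries were above both DMSO libraries, for FRS2 as for MID1IP1. These were A375, Cal51 and the libraries labelled DLD1 wild-type. How many of all genes separated in this way within lines, here and below, was not counted.

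TBRG4 encodes a FASTK-family protein that stabilises mitochondrial mRNAs. Its clearest values were in G579S cells. The transcripts without exons 4 and 5 together held 47.7% in both OTS964 libraries of DLD1 G579S cells, against 7.3% and 10.2% with DMSO. In A375 G579S cells they held 21.1% and 20.3% against 5.5% and 5.9%. Cal51 G579S cells had 11.1% and 8.9% against 7.2% and 5.6%, and MDA-MB-231 G579S cells had 11.1% and 14.0% against 8.3% and 7.3%. Both OTS964 libraries were above both DMSO libraries in each of the 4 G579S lines, and the exact 95% intervals were at most 4.24 points wide. The main transcript NM_004749.3, which has both exons, held means of 90.5% and 75.2% in G579S cells with DMSO and OTS964. NM_030900.3 was at 0 in all 8 G579S DMSO libraries and in the OTS964 libraries of Cal51 and MDA-MB-231, so its mean of 12.8% came from A375 and DLD1 G579S cells. In wild-type cells the exon-lacking transcripts held 6.04% to 11.2% with DMSO and 4.98% to 15.4% with OTS964, and the groups overlapped. NM_030900.3 itself was above 0 in 1 wild-type library, the second OTS964 library labelled DLD1 wild-type, and its mean difference of 1.29 points was 0 without that library.

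TAF1C encodes a subunit of the SL1 complex, which selects promoters for RNA polymerase I. NM_005679.3, which keeps the 78-base intron, was at 0 in both DMSO libraries of A375, Cal51 and the samples labelled DLD1, all wild-type. With OTS964 it held 60.5% and 48.6% in A375 cells and 46.7% and 42.5% in those labelled DLD1 wild-type. Both Cal51 libraries stayed at 0, where 3 reads would be at most 0.664% of the gene in any wild-type OTS964 library. MDA-MB-231 cells already had 15.0% and 13.6% with DMSO, and 41.2% and 25.9% with OTS964. In G579S cells 3 of 4 lines also had both OTS964 libraries above both DMSO libraries, with 21.5% and 35.5% in A375, 42.6% and 39.1% in DLD1, and 29.1% and 27.8% in MDA-MB-231 against 0 with DMSO. Cal51 G579S libraries had 12.4% and 0 with DMSO and 27.5% and 0 with OTS964. NM_001243156.1, without the intron, went the other way in its means. These were 60.2% and 23.1% in wild-type and 55.9% and 30.0% in G579S cells, DMSO before OTS964. Both OTS964 libraries were below both DMSO libraries in A375 and DLD1 as labelled, in either genotype. In Cal51 and MDA-MB-231 cells of either genotype the OTS964 and DMSO libraries overlapped. In wild-type cells NM_001243159.1 had means of 19.6% and 30.8%, and the predicted XM_005256226.1 had 12.8% and 9.78%. Neither was assigned as keeping or lacking the intron, so the 2 shares above do not give the full balance of kept and spliced transcripts. The other 7 transcripts of TAF1C had mean shares of at most 2.48%.

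ABL2 encodes a nonreceptor tyrosine kinase whose C-terminal part binds actin. The 3 transcripts that keep the 309-base intron together held 0 in 6 of 8 wild-type DMSO libraries, 4.8% in 1 MDA-MB-231 and 27.6% in 1 Cal51 library. With OTS964 they held 22.3% and 30.2% in A375 cells, 92.7% and 61.4% in Cal51 cells, 22.2% and 20.9% in those labelled DLD1 wild-type, and 100.0% and 19.3% in MDA-MB-231 cells. Within each line as labelled, both OTS964 libraries were above both DMSO libraries. The 4 transcripts without the intron went the other way, from 42.1% to 83.0% with DMSO to 0 to 34.4% with OTS964, with no overlap. Such a separation of a set of transcripts was not counted over all genes. A predicted transcript, XM_005245088.1, could be put in neither set and held a mean of 28.5% with DMSO and 42.6% with OTS964. With OTS964 it held 66.3% and 61.0% in A375 cells and 70.7% and 69.3% in those labelled DLD1 wild-type. In the second MDA-MB-231 library it held 73.9%. It exceeded the intron-keeping set in each of these libraries, and stood at 0 in both Cal51 libraries and the first MDA-MB-231 library. NM_001136001.1, also in neither set, had mean shares of at most 4.27%. Of the transcripts without the intron, NM_001136000.2 went from a mean of 23.3% to 0 in all 8 libraries and NM_001168238.1 from 14.6% to 0, while NM_001168237.1 had 12.1% and 4.30% and NM_001168239.1 had 17.4% and 2.67%. Which intron-keeping transcript was high differed by library. NM_001168236.1 held 92.7% in the first Cal51 library, which had 182 reads of the gene, and NM_005158.4 held 100.0% in the first MDA-MB-231 library. Without that MDA-MB-231 library the mean gain of NM_005158.4 fell from 21.6 to 10.5 points. In G579S cells the intron-keeping set spread from 0 to 43.6% with DMSO and from 0 to 34.2% with OTS964.

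JADE1 encodes a scaffold of the KAT7 histone acetyltransferase complex. It was the only member whose gaining transcript, NM_024900.4, was higher in all 8 wild-type OTS964 libraries than in all 8 DMSO libraries. Such a separation was found in 4.05% of the 4961 genes with reads in every library. NM_024900.4 and NM_001287441.1 end early, after 9 of 11 exons, with a coding sequence of 1527 in place of 2526 bases. Together they held 15.6% to 35.9% with DMSO and 72.8% to 100.0% with OTS964, with means of 25.6% ± 7.66 and 84.5% ± 8.20 (SD, n = 8). The full-length NM_199320.3 went from a mean of 27.9% to 0 in all 8 libraries and NM_001287442.1 from 30.1% to 4.9%. NM_001287439.1, also of full length, had 13.5% and 10.5%. On the CPM scale, the early-ending pair stood at a mean of 11.0 with DMSO and 74.2 with OTS964. Single libraries ran from 6.89 to 17.8 CPM with DMSO and from 9.29 to 189 CPM with OTS964, so the levels overlapped. The lowest OTS964 level was also the lowest total of the gene, in the second MDA-MB-231 library, where the share was 100.0%. In G579S cells the lines went apart. The pair held 81.9% and 78.9% against 28.5% and 28.9% in MDA-MB-231 cells, and 12.9% and 21.6% against 23.0% and 43.3% in Cal51 cells.

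ZMYND8 encodes a chromatin reader with PHD, bromo and PWWP domains. Its gaining transcript NM_001281769.1 is 1277 bases long, beside 5333 bases for NM_183047.3. It was at 0 in all wild-type DMSO libraries and held 31.1% and 68.8% with OTS964 in A375 cells, 49.7% and 76.7% in Cal51 cells, 11.9% and 38.1% in those labelled DLD1 wild-type, and 0 and 8.1% in MDA-MB-231 cells. The gene had 7 to 228 reads in those 8 libraries, fewer than 100 in 3 of them, and 436 to 1173 with DMSO. With 7 reads, the first MDA-MB-231 library allows no statement, since 3 reads would be 42.9% of the gene. NM_183047.3 had a mean of 33.2% with DMSO and 0 in all 8 OTS964 libraries, but DMSO replicates already differed, at 33.5% and 0 in A375 cells. NM_012408.5 likewise ran from 0 to 74.0% with DMSO, with a mean of 36.9% against 8.58% with OTS964, and NM_001281781.2 had means of 16.3% and 19.0%. NM_001281780.2, with a mean of 12.9% with OTS964, owes most of it to the library of 7 reads, where it held 100.0%. In CPM, NM_001281769.1 reached a mean of 3.91, and the gene went from a median of 38.7 to 12.7, so the higher share came with a lower total. Of the 18 matched transcripts, 13 had mean shares of at most 9.67%.

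SMAD3 encodes the transcription factor that TGF-beta receptors phosphorylate. NM_001145104.1 starts at an inner site and has 7 in place of 9 exons and a coding sequence of 690 in place of 1275 bases. It was at 0 in all wild-type DMSO libraries. With OTS964 it held 62.3% and 44.1% in those labelled DLD1 wild-type, 13.3% and 16.4% in MDA-MB-231 cells, 30.5% and 0 in Cal51 cells, and 0 in both A375 libraries. Its mean gain of 20.8 points became 10.0 when the libraries labelled DLD1 wild-type were left out. The level of the gene was lower in each line, with a median of 117 CPM with DMSO and 18.6 CPM with OTS964. The inner-start transcript reached a mean of 4.73 CPM, and the main transcript NM_005902.3 went from 137 to 17.3 CPM. NM_001145102.1 had mean shares of 10.1% and 12.4%.

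BPTF encodes the large subunit of the NURF chromatin remodeller. Its losing transcript by mean share, NM_182641.3, had 19.1% with DMSO and 6.57% with OTS964 in wild-type cells. NM_004459.6 was at 0 in all 16 OTS964 libraries of both genotypes. With DMSO it held 0 to 40.8% in wild-type cells, with a median of 6.53%, and 0 to 37.6% in G579S cells, with a median of 16.5%. It was at 0 in both DMSO libraries of A375 G579S and of wild-type MDA-MB-231 cells, so there the drug groups could not differ. In Cal51, DLD1 and MDA-MB-231 G579S cells both DMSO libraries were above 0, at 13.3% or more. Of the 13 BPTF transcripts, 7 had mean shares under 10%, and the predicted XM_005257153.1 and XM_005257161.1 held means of 14.2% and 25.1% in wild-type DMSO libraries and 26.8% and 24.7% with OTS964. XM_005257152.1 and XM_005257156.1 had 13.6% and 12.9% with DMSO and 14.3% and 11.2% with OTS964. The gene had 137 to 441 reads in a wild-type OTS964 library and 1111 to 2292 with DMSO.

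**Figure D2:**
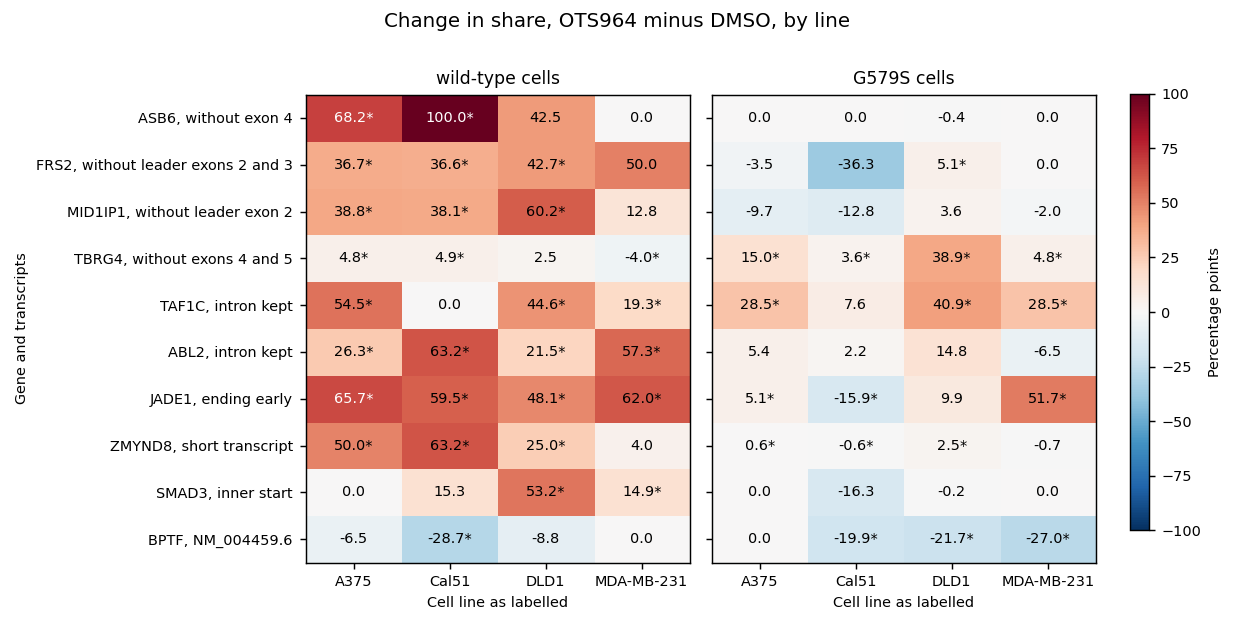
Share with OTS964 minus share with DMSO (colour and number, percentage points, means of 2 libraries) for each gene's named transcripts (rows) in each line as labelled (columns), in wild-type and G579S cells. An asterisk marks lines whose 2 OTS964 libraries lie on 1 side of both DMSO libraries, as in all 4 wild-type lines for ABL2 and JADE1 and in all 4 G579S lines for TBRG4.

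Whether a switch rested on 1 library was asked by leaving out each wild-type library in turn. The mean gain of the gaining transcript stayed between 51.7 and 57.1 points for JADE1, 45.9 and 60.2 for ASB6, 33.1 and 47.4 for FRS2, 31.0 and 42.9 for MID1IP1, 29.7 and 40.6 for ZMYND8, and 25.7 and 34.3 for TAF1C. For SMAD3 it lay between 14.9 and 23.8 points and for BPTF between 9.08 and 16.4 points. ABL2 and TBRG4 were the members that 1 library moved by over 1.5 times, as given above. Without all 4 libraries labelled DLD1 wild-type, the gains of MID1IP1 and TAF1C were 29.9 and 24.6 points, and that of TBRG4 was 0.

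**Figure D3:**
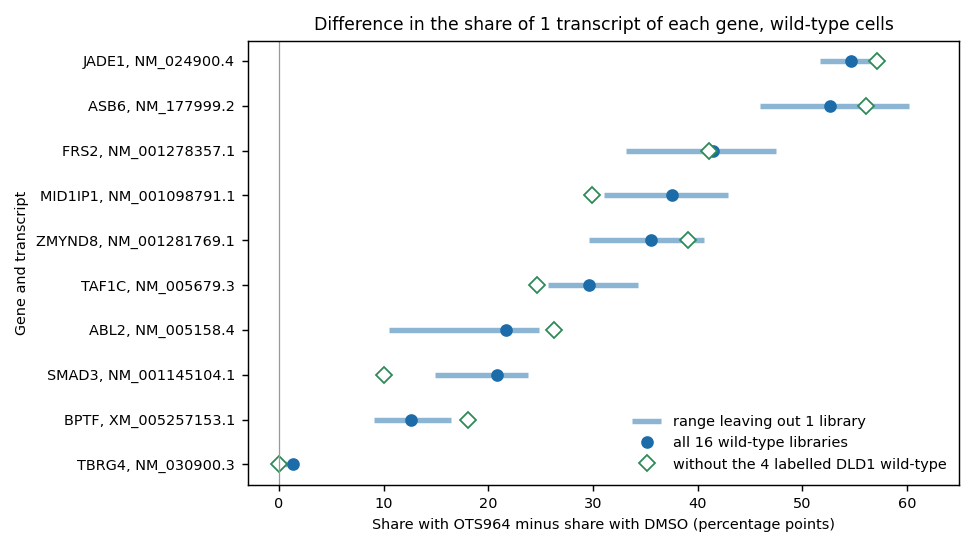
Mean share of the gaining transcript with OTS964 minus DMSO in wild-type cells (x axis, percentage points) for each gene (y axis), from all 16 libraries (filled circles), without the 4 libraries labelled DLD1 wild-type (open diamonds), and over the 16 values that each leave out 1 library (bars). The bars stay above 9 points for all genes except TBRG4, which reaches 0, and SMAD3 shows the widest gap between circle and diamond, 20.8 against 10.0 points.

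The transcript usage test asks, gene by gene, whether transcripts respond differently from the rest of their gene (edgeR's diffSpliceDGE with the Simes method, Benjamini-Hochberg adjustment over all genes). In wild-type cells it called 5.33% of 6403 genes at an adjusted p under 0.05 and 8 of the 10 members, which follows from how they were chosen. Their places in that order were 26 for MID1IP1, 27 for FRS2, 44 for JADE1, 60 for ABL2, 73 for SMAD3, 93 for ASB6, 188 for ZMYND8, 256 for TAF1C, 428 for BPTF and 6369 for TBRG4. In G579S cells it called 0.106% of 6619 genes, and TBRG4, BPTF and TAF1C stood at places 1, 2 and 5 of that order, the 3 members called there, so these 3 had evidently been picked on the G579S cells and nothing is read from those calls. Just beyond ZMYND8 in the wild-type order, the gaining transcripts of FBXO28, ESS2, USP33, NFIX and KIF13A had mean gains of 1.86, 24.6, 30.6, 17.5 and 20.5 points.

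The members were chosen with the G579S libraries also in view, so their G579S values are given as a description, with no test, for the 7 members that those cells did not put near the top. The mean difference over the 4 G579S lines was -0.09 ± 0.09 points (SE over lines) for ASB6, 0.45 ± 0.74 for ZMYND8, -0.40 ± 2.19 for ABL2, -4.11 ± 4.06 for SMAD3, -5.25 ± 3.72 for MID1IP1, -8.70 ± 9.37 for FRS2 and 12.5 ± 14.3 for JADE1. For ASB6 and ZMYND8 no G579S line differed by more than 2.47 points in either direction. For FRS2 and JADE1 the lines ran from -36.3 to 5.05 and from -16.8 to 51.7 points, so the mean describes no single line. These means do not show that the drug left the shares as they were, and the difference between genotypes was not tested. The gaining transcripts of FRS2, MID1IP1 and SMAD3 were also not strictly absent without drug. Those of FRS2 and SMAD3 held 75.7% and 32.6% in the same library, the second Cal51 G579S library with DMSO. The lowest line values of both genes rest on that library. The MID1IP1 transcript held 25.6% in the first Cal51, 19.5% in the second A375 and 3.96% in the first MDA-MB-231 G579S library with DMSO.

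Gene totals went both ways. In wild-type cells the log2 fold change of the summed gene, given as a description with its SE, was -2.53 ± 0.07 for SMAD3, -2.21 ± 0.13 for BPTF, -1.81 ± 0.44 for ZMYND8, -0.74 ± 0.23 for ABL2 and -0.19 ± 0.12 for TAF1C. It was 0.55 ± 0.41 for FRS2, 0.46 ± 0.18 for MID1IP1, 0.45 ± 0.39 for JADE1, 0.32 ± 0.29 for ASB6 and 0.18 ± 0.07 for TBRG4. With library totals in place of TMM scaling the median gene moved by -0.59 on the log2 scale, and the last 5 values became -0.05, -0.14, -0.16, -0.28 and -0.42. Under both scalings 5 members had a lower total, of which TAF1C lay closest to 0 with TMM, and the others had a direction that rests on the scaling. The median over all genes was also below 0, at -0.06 with TMM and -0.65 with library totals. Genes lower under both scalings were not counted, so nothing is read from the count of 5. In bulk samples, fewer cells of a type and less RNA per cell cannot be told apart. In G579S cells the same 7 members had log2 fold changes from -0.07 ± 0.21 for ZMYND8 to 0.43 ± 0.13 for ABL2, also as a description.

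**Figure D4:**
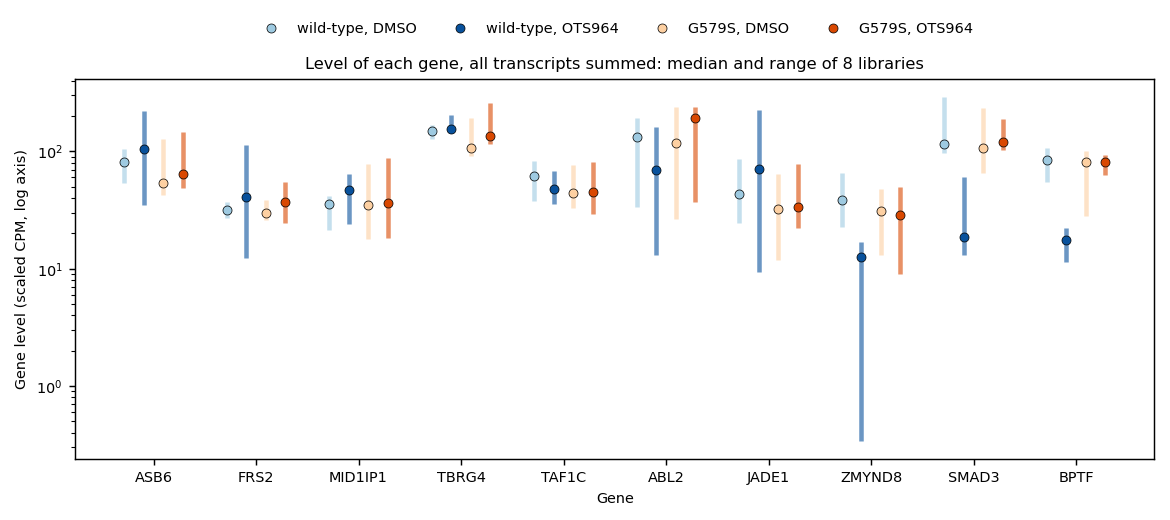
Level of each gene summed over its transcripts (y axis, scaled CPM, log axis) by genotype and treatment, as the median (point) and range (line) of 8 libraries. With OTS964 in wild-type cells SMAD3, BPTF and ZMYND8 had medians of 18.6, 17.7 and 12.7 CPM, below every wild-type DMSO library of the same gene, and the ZMYND8 range reaches 0.339 CPM in 1 MDA-MB-231 library.

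The gaining transcript was shorter than the losing one in 8 of 10 members, all except ABL2 and TAF1C. Among all 4961 tested genes with reads in every library the share was 55.8%, and among the 316 of these called in wild-type cells 57.3%. The median gain was 32.6 points in the members, 27.3 points in the called genes and 5.10 points in all tested genes. Over the 32 libraries, the transcripts whose shares were most alike to the mean of the 10 gaining transcripts, of 4226 genes compared, belonged to ID1, RUNX1, ITPRID2, USP12 and CAB39, with Pearson r from 0.963 for ID1 to 0.935 for CAB39. RUNX1's NM_001122607.1 went from a mean of 4.98% to 79.8% in wild-type and from 15.4% to 21.7% in G579S cells. The 32 points share lines and treatment groups, so r is a description.

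Paralogs and partners of the members were followed in a list of 70 genes. For transcript usage 47 could be tested in wild-type cells and 5 were called, beside 5.33% of all 6403 genes, among them BRD2, SMAD7, FGFR2 and ABI2. BRD2, a bromodomain protein of the same reader class as ZMYND8, had NM_001113182.2 at a mean of 7.01% with DMSO and 45.3% with OTS964 (edgeR, adjusted p = 2.3e-06). SMAD7, the inhibitory SMAD, had NM_001190823.1 at 0.03% and 21.5% (adjusted p = 1.5e-07). ABI2, an ABL-interacting adaptor, had NM_001282932.1 at 1.92% and 7.64% (adjusted p = 0.0385), and the FGF receptor FGFR2 was called at an adjusted p of 0.0126 but had no reads in some libraries. In G579S cells edgeR called 0 of 47 partners, beside 7 of all 6619 genes. It gave 2 partners an unadjusted p under 0.05, beside 286 of all genes. With limma 2 partners were called, beside 183 of the 6619 genes.

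At the gene level 33 of 68 partners were lower and 12 higher with OTS964 in wild-type cells, beside 32.0% lower and 29.9% higher among all genes tested. The median log2 fold change was -0.63 over the partners and -0.06 over all genes. With library totals as scaling 50 partners were lower and 7 higher, beside 6801 lower and 1935 higher of all 13677 genes. The median log2 fold change was then -1.23 over the partners and -0.65 over all genes. With TMM scaling, the lower ones included the DNA-binding SMAD4 (log2 fold change -2.02), which SMAD3 binds, and the CUL5 scaffold used by ASB6 (-1.03). The KAT7 acetyltransferase of the JADE1 complex (-0.96) and the paralog ABL1 (-1.76) were also lower. The higher ones included RNF7 (0.70), ELOB (1.22) and ELOC (0.89), listed for ASB6 like CUL5. SMAD7 (2.20), listed for SMAD3 like SMAD4, was higher too. All of these examples were chosen for their roles after the values were seen. In G579S cells MID1, SMAD7, TAF1D and RRN3 were higher and RBBP4 was lower, 5 of 69 tested, beside 2.86% of all 13985 genes (edgeR's quasi-likelihood test). With library totals as scaling 2 of the 69 were higher and 3 lower, beside 99 higher and 732 lower of all genes, so the direction depends on the scaling.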

How the data were processed

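Libraries were grouped by their titles. Per the file headers, the authors deposited for each library estimated counts and TPM of 87398 RefSeq identifiers, beside each identifier's length. As deposited, the estimated counts are neither whole nor normalized, and the TPM values were normalized by the authors to transcript length. The tool that made them is not stated in the sources used here, and the submitters' processing notes name only mouse builds although the identifiers are human, so no coordinate comes from the files. Such tables split reads between similar transcripts by an estimate, so a share of 0 or 100% can differ between replicates that hold nearly the same reads.

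Identifiers were matched to genes through RefSeq and GENCODE tables: 42587 matched (48.7%), with 87.6% of the reads, but only 6315 of 31064 predicted transcripts. Reads on unmatched transcripts were left out. Predicted transcripts held 8.97% to 9.46% of reads in wild-type OTS964 and 11.4% to 12.5% in wild-type DMSO libraries, and their part in the shares was not tested. RefSeq transcripts were paired with GENCODE models by accession.

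Counts were rounded and tested with edgeR 4.0.16 in R 4.3.3 (quasi-likelihood fit, TMM scaling, edgeR's filter on low counts, line as a block), with diffSpliceDGE for usage and Benjamini-Hochberg adjustment over all genes at 0.05. Fits were checked on simulated data. Alternatives used limma 3.58.1 and DESeq2 1.42.0, other scalings and filters, counts scaled from TPM, shares of TPM, curated transcripts only, a replicate block, and leaving out libraries. The members, transcript sets and the list of partners were chosen with earlier results of these data known. Contrary to the design first written, the tests of members in G579S cells were run but nothing is drawn from them: TBRG4, TAF1C and BPTF had evidently been chosen on that contrast, and the other 7 are what remains once they are set apart. Of each gene, transcripts with a mean share of 10% or more in a genotype under a treatment are named. Partners are named when called for usage, except 1 that is not reported here. Intervals and the limit of 3 reads cover counting error only.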

Additional observations from a re-analysis of the deposited data

Results flagged for a closer look

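In 3 cases, lines of 1 genotype moved in opposite directions, with both OTS964 libraries on opposite sides of both DMSO libraries. The differences between lines were not tested. The share of early-ending JADE1 transcripts in G579S cells differed by 51.7 points in MDA-MB-231 and 5.09 points in A375 cells, and by -15.9 points in Cal51 cells. The share of ABL2 transcripts without the intron in G579S cells differed by 28.2 points in Cal51 and by -28.1 points in DLD1 cells. The share of TBRG4 transcripts without exons 4 and 5 in wild-type cells differed by 4.85 points in A375 and 4.94 points in Cal51 cells, and by -4.03 points in MDA-MB-231 cells. The short ZMYND8 transcript in G579S cells met the same criterion with 0.64 points in A375, 2.47 points in DLD1 and -0.64 points in Cal51 cells. There 3 reads were 0.327% to 1.86% of the gene. The DLD1 value rests on 1 library, with 4.89% and 0.49% under OTS964 against 0 and 0.44% with DMSO. No direction is read from any of these values. With 2 libraries in each group, no library could be compared with the rest of its group.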

How the results depend on the processing

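The mean gain of the gaining transcripts in wild-type cells had a median of 32.6 points over the 10 genes. It was 35.3 points as a share of TPM, 37.5 points over the 9 genes with a curated gaining transcript, and 28.1 points without the libraries labelled DLD1 wild-type. Leaving out 1 library gave 29.1 to 34.9 points. Counts over all genes moved more. In G579S cells 7 genes were called for usage, 4 without DLD1 G579S libraries, 70 with the gene-level F test, 183 with limma, and 5 to 17 leaving out 1 library, 17 without the first Cal51 DMSO library. In wild-type cells 341 genes were called, 129 without the libraries labelled DLD1 wild-type, 1004 with the F test, 1425 with limma, and 229 to 360 leaving out 1 library. At the gene level in G579S cells 400 genes were called, 1769 with DESeq2, 831 with library totals as scaling, and 100 (without the first DLD1 DMSO library) to 1662 (without the second Cal51 DMSO library) leaving out 1 library. In wild-type cells 8459 genes were called, 48.3% of them higher, beside 8736 and 22.1% with library totals, which were added after seeing the data, and 8113 to 8795 leaving out 1 library. The cause of these moves was not tested.

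With the replicate block, usage calls in G579S cells were 16, and gene-level calls there were 0 of 13985, with 2370 at an unadjusted p under 0.05. The labels give same-numbered libraries only a shared number, and do not say whether they were handled together. The correlation of their deviations lay between -0.034 and 0.068 over 8 pairs of groups. A correlation over all genes cannot decide whether they were paired.

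Library totals reversed the wild-type gene-level values of ASB6 (-0.28), FRS2 (-0.0521), MID1IP1 (-0.14), JADE1 (-0.16) and TBRG4 (-0.42), and in G579S cells that of SMAD3 (-0.00074), which moved there with a median gene shift of -0.11. In G579S cells the ZMYND8 value of -0.07 ran from -0.19 to 0.0491 leaving out 1 library, above 0 without the first Cal51 DMSO (0.02), the first DLD1 DMSO (0.0491) or the first DLD1 OTS964 library (0.04). Depth limits ZMYND8 most, with 7 to 228 reads in a wild-type OTS964 library, and single libraries of ABL2, BPTF and SMAD3 held as few as 135, 137 and 137 reads.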
